A study of Caenorhabditis elegans with 9 samples.

Results

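Young adult Caenorhabditis elegans were profiled on 9 Affymetrix one-colour arrays of messenger RNA from whole animals, and these arrays fall into 3 that carry a high level of the collagen transcript col-19 and 6 that carry a low one. The dividing level was 5.5 on the log2 scale of the deposited values. All 9 of the 9 arrays in the series are used, and each genotype contributes 1 array above that level and 2 below it. The genotypes were the wild-type strain N2, the strain MT14769, a double mutant prg-1(n4357);prg-2(n4358) written n4357 n4358 below, and the strain SX9, a double mutant prg-1(n4503);prg-2(nDf57) written n4503 nDf57, with 3 arrays each. The protein of prg-1 is an Argonaute of the Piwi class that binds piRNAs in the germline, and prg-2 is closely related to it. The labels name no treatment, call every sample a young adult, and give 1 strain for each mutant genotype.

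Replicates 1 to 3 read 3.53, 7.29 and 4.80 log2 for col-19 in N2, 3.98, 3.64 and 6.04 in MT14769, and 6.72, 3.42 and 3.49 in SX9. Above the dividing level were therefore replicate 2 of wild type, replicate 3 of n4357 n4358 and replicate 1 of n4503 nDf57, called col-19-high below, and the other 6 are called col-19-low. The value just above the dividing level was 6.04 and the value just below it was 4.796. Because a measured transcript made the split, every difference between the high and the low arrays is given as a description with no test, and col-19 is left out of every list and count of list members. Only that difference, with its sign, was tested in 1 genotype against another.

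The nematode cuticle is a collagen-rich coat that the epidermis builds anew at each larval moult and once more for the adult. In each round a transient precuticle of zona pellucida proteins, leucine-rich repeat proteins and lipocalins is laid down early, together with the collagens that shape the circumferential furrows, and other collagens follow before the old coat is shed. col-19 belongs to the adult coat and is switched on in the epidermis by the zinc finger protein LIN-29 at the passage from larva to adult. In the same hours the hermaphrodite germline makes sperm and then turns to oocytes, and the intestine begins to make yolk.

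The mutated genes came first as a check of the labels. For prg-1 replicates 1 to 3 read 6.93, 6.13 and 5.41 log2 in N2, 6.74, 7.95 and 5.47 in MT14769 and 7.50, 6.72 and 7.07 in SX9. For prg-2 they read 6.53, 6.35 and 6.01 in N2, 5.46, 6.10 and 6.04 in MT14769 and 6.27, 5.87 and 5.95 in SX9. The genotypes overlapped for both genes, and where the probes lie relative to the alleles was not used here, so these levels do not check the genotypes. The col-19 classes overlapped as well, with differences of -0.44 ± 0.51 log2 for prg-1 and 0.24 ± 0.17 for prg-2 (blocked by genotype, with the standard error over 9 arrays).

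Values are RMA levels on the log2 scale, and array medians lay between 4.76 and 4.83. The difference between actin probes at the 3′ and 5′ ends, a measure of RNA integrity, ran from 0.33 to 0.42 on the high arrays and from 0.22 to 0.59 on the low arrays, so the classes overlapped. The hybridisation controls overlapped as well, at 9.28 to 9.93 against 9.17 to 9.996. The labelling controls averaged 3.23 to 3.62 log2 on the high arrays and 3.14 to 3.22 on the low arrays, with n4357 n4358 replicate 3 the highest. These ranges did not overlap, but all lay below the array medians. The nearest values were 3.232 on wild-type replicate 2, a high array, and 3.217 on n4357 n4358 replicate 2, a low one. The part of labelling in the differences below was not tested. Whether replicates came from separate cultures is not said in the labels. The p-values below speak only of the spread inside each genotype's pair of low arrays, which may be technical. The lone high arrays add nothing to that measure of spread.

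A gene is called higher or lower here when its mean difference between high and low arrays, with genotype as a block, was at least 1 log2, that is 2-fold, and its high array lay beyond both low arrays in each of the 3 genotypes. Values are given in the order wild type, n4357 n4358, n4503 nDf57, first for the 3 high arrays and then for the 3 pairs of low arrays. Of 17118 genes, each read from its brightest probe set, 182 were called higher (1.06% of genes) and 395 were called lower (2.31%). Over 22548 probe sets the counts were 231 higher (1.02%) and 505 lower (2.24%). Wild-type replicate 2 mattered most to the second count: without it 995 probe sets were called lower, while leaving out any other array gave 473 to 616. The 995 asks for separation in the mutant genotypes only, since wild type then has no high array. Leaving out a mutant's high array likewise drops that genotype from the rule. The lower genes outnumbered the higher ones at 2-fold, 395 against 182, and at 4-fold, 49 against 34. At 8-fold the order turned, with 10 genes higher and 3 lower. The last genes inside the limit were bed-3 at 1.0087 and T19D12.4 at -1.0002, and the first outside it were the collagens col-186 at 0.998 and col-80 at -0.997.

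Separation of the classes with no regard to size was far wider. In 1513 genes (8.84%) all 3 high arrays lay above all 6 low arrays, and in 1534 genes (8.96%) they lay below them. Over probe sets the shares were 8.26% and 9.12%. The first principal component of the deviations from genotype means held 59.8% of the variance inside genotypes, and the array farthest out on it in each genotype was the col-19-high one.

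Cuticle collagens made up the largest differences upward. Of the 12 genes with the largest positive differences, 9 were numbered collagens other than col-19 and 1 was col-19, and the remaining 2 were Y47D7A.15 and R12E2.7, for which no role is given here. The collagen col-120 measured 10.15, 9.98 and 10.26 log2 on the high arrays against low pairs of 5.06 and 7.15, 6.99 and 4.76, and 4.92 and 5.69. Every high array exceeded every low array, and the blocked difference was 4.37 ± 0.58 log2 (standard error, 9 arrays), or 20.7-fold.

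col-60 followed with 10.95, 10.66 and 10.995 log2 on the high arrays against low pairs of 5.82 and 7.97, 7.87 and 6.11, and 5.80 and 6.36, a difference of 4.21 ± 0.53. For col-122 the high arrays read 10.701, 10.04 and 10.35 log2 against low pairs of 5.76 and 7.78, 7.46 and 5.96, and 5.29 and 5.73, a difference of 4.04 ± 0.50. In both of these collagens, as in col-120, wild-type replicate 3 and n4357 n4358 replicate 1 stood above the other 4 low arrays while staying below all high ones. col-181 showed 10.91, 9.70 and 10.28 log2 on the high arrays against low pairs of 5.94 and 8.14, 6.97 and 6.17, and 5.88 and 6.21, and differed by 3.75 ± 0.45. The next members were col-129 at 3.38, col-106 at 3.29, col-184 at 3.09, col-140 at 3.004 and col-139 at 2.87 log2. Probe sets able to detect more than 1 related gene, called shared below, stand behind col-120, col-129, col-106, col-139 and col-140, while those of col-60, col-122, col-181 and col-184 are not of that kind.

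**Figure D1:**
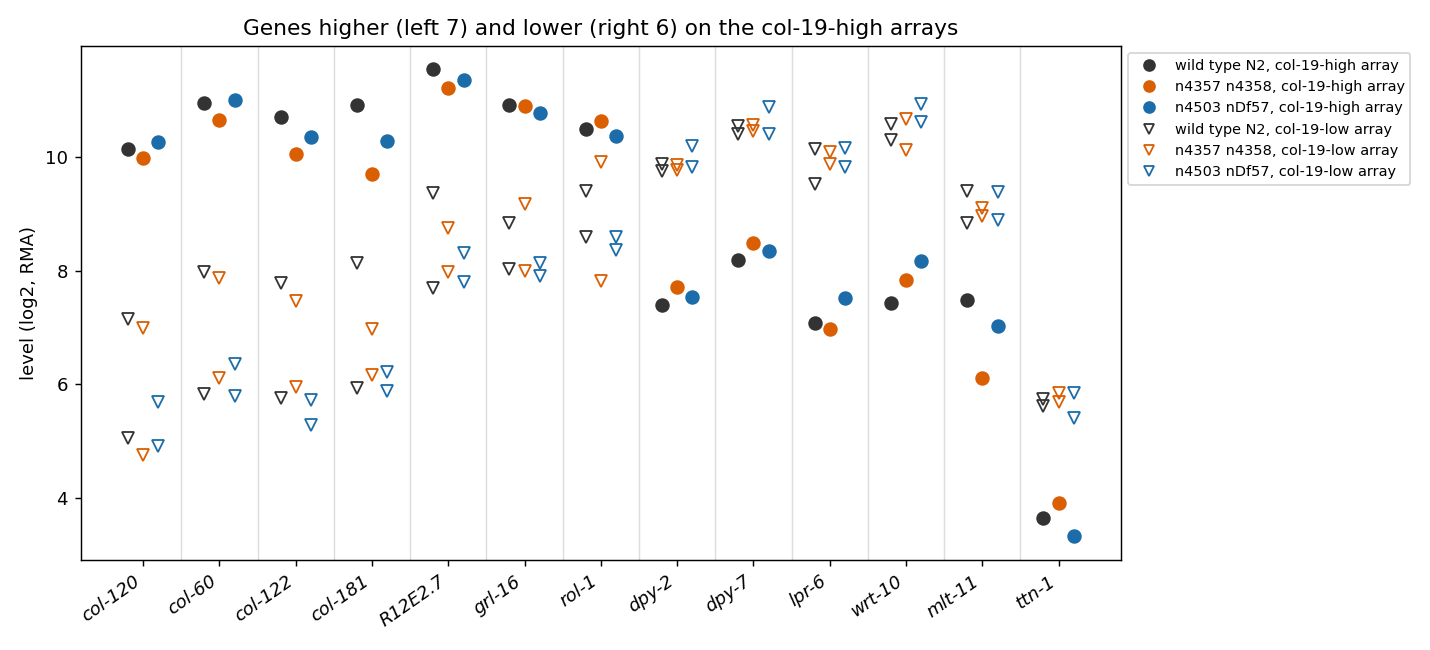
Level (log2, RMA) of 13 genes on each of the 9 arrays, with filled circles for the col-19-high array and open triangles for the 2 col-19-low arrays of each genotype. The 7 genes on the left lie higher on all 3 filled circles, and the 6 on the right lie lower on all 3.

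Across all 127 numbered collagens other than col-19, 43 were called higher and 6 lower, 33.9% and 4.72% beside 1.06% and 2.31% of all genes. The median difference was 0.68 log2 beside 0.045 for all genes, and 116 of the 127 differences were positive. Lower members included col-103, which measured 7.16, 8.42 and 8.32 log2 on the high arrays against low pairs of 10.25 and 9.44, 9.69 and 11.12, and 10.23 and 10.31, a difference of -2.21 ± 0.32. col-128 at -2.16 and col-98 at -2.05 log2 were lower too. These 3 were picked for display after their values were seen, as the lowest members of a list whose rule names only its largest differences.

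Adult cuticle collagens, the list that shares its stage with col-19, had 7 measured members beside col-19. Of these, 4 were called higher (57.1%, beside 1.06% of all genes) and 0 lower. rol-1, whose mutations make adults roll, read 10.48, 10.63 and 10.36 log2 on the high arrays against low pairs of 8.60 and 9.40, 9.91 and 7.82, and 8.36 and 8.58. All 3 high arrays lay above all 6 low arrays, and the difference was 1.72 ± 0.40. The others called higher were col-49 and col-63, both at 1.55, and col-138 at 1.46 log2. The remaining members, bli-1 and bli-2, which encode collagens of the adult cuticle's struts, differed by -0.94 and -0.32 log2, and col-38 by 0.63. None of these was called, but bli-1 went against the list. Its high arrays, at 9.78, 9.72 and 9.50 log2, all lay below all 6 low arrays, by less than 2-fold. For the whole list the median deviation from the 9-array mean was 0.890, 1.097 and 0.820 log2 on the high arrays and ran from -1.04 to 0.56 on the low arrays.

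The furrow collagens went the other way. Among 16 body-shape collagens 0 were called higher and 5 lower (31.2%, beside 2.31% of all genes). The 5 were dpy-2, dpy-3, dpy-7, dpy-8 and dpy-9, which act together in the annular furrows of the cuticle. Loss of these genes makes animals short and wide. dpy-2 measured 7.40, 7.72 and 7.53 log2 on the high arrays against low pairs of 9.87 and 9.76, 9.77 and 9.86, and 10.19 and 9.83. The 6 low arrays lay close together and all above the 3 high arrays, and the difference was -2.33 ± 0.11, or 5.02-fold lower. dpy-7 read 8.19, 8.49 and 8.34 against low pairs of 10.55 and 10.40, 10.45 and 10.55, and 10.88 and 10.40, a difference of -2.2 ± 0.12. dpy-8 and dpy-9 were lower by the same order, at -2.04 and -1.96 log2, and dpy-3, outside the 4 members the naming rule takes, stood at -1.83. The probe sets of dpy-3, dpy-7 and dpy-8 are shared. Over the whole list the median was 0.086 log2, and the 11 other members differed by less than 1 log2.

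Precuticle genes were split. Of 46 members 8 were called lower and 4 higher, 17.4% and 8.7% beside 2.31% and 1.06% of all genes. sym-1, a leucine-rich repeat protein of the precuticle, measured 6.18, 6.80 and 6.64 log2 on the high arrays against low pairs of 9.46 and 8.84, 9.09 and 9.41, and 9.35 and 9.11, a difference of -2.67 ± 0.16 with all 6 low arrays above all 3 high ones. The lipocalin-related genes lpr-3, at -2.55 ± 0.18, and lpr-1, at -2.27 ± 0.16, and the zona pellucida protein gene noah-2, at -1.98 ± 0.12, were lower with the same separation. The others called lower were noah-1, fbn-1, let-4 and let-653, between -1.92 and -1.46 log2. The 4 called higher were the cuticlin genes cut-2 and cut-4, the cuticlin-like gene cutl-15, and mup-4, which encodes a transmembrane matrix receptor of the epidermis, between 1.03 and 1.85. These last 8 names come from the list's called members and were chosen after their values were seen.

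The lipocalin-related genes also formed the longest run of neighbours. In the gene order of the reference assembly WBcel235, lpr-3, lpr-6, lpr-5 and lpr-4 lie next to each other on chromosome X, and all 4 were called lower. lpr-6 measured 7.08, 6.97 and 7.51 log2 on the high arrays against low pairs of 10.14 and 9.53, 9.88 and 10.09, and 10.16 and 9.82, a difference of -2.75 ± 0.16. lpr-5 differed by -2.67 and lpr-4, outside the naming rule, by -2.66 log2. Other runs held 3 genes each: T14B4.19, dpy-2 and T14B4.5 on chromosome II, C30F12.5, ctg-1 and chd-1 on I, and Y73F4A.3, Y73F4A.2 and Y73F4A.1 on IV were lower, and H23N18.5, C02E7.7 and C02E7.6 on V were higher. By chromosome the share of genes called lower ran from 1.91% on III to 3.36% on X, and the share called higher from 0.788% on V to 1.69% on IV.

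Genes that act in moulting leaned lower as a list. Of 24 members 7 were called lower (29.2%) and 1 higher (4.17%), beside 2.31% and 1.06% of all genes. Their differences were negative in 21, with a median of -0.57 log2. mlt-11, a gene needed to shed the old cuticle that encodes a protein with protease-inhibitor domains, measured 7.49, 6.11 and 7.02 log2 on the high arrays against low pairs of 9.40 and 8.84, 9.10 and 8.97, and 8.89 and 9.38. Its low arrays all lay above its high arrays, and the difference was -2.22 ± 0.24. nas-37, an astacin metalloprotease that opens the old cuticle, read 6.78, 6.06 and 6.16 against low pairs of 7.39 and 8.07, 8.05 and 7.39, and 7.94 and 7.56, a difference of -1.40 ± 0.22. nhr-23, the nuclear receptor that drives moulting genes, read 4.64, 4.04 and 4.85 against low pairs of 6.03 and 5.34, 5.60 and 5.97, and 5.91 and 5.77, a difference of -1.26 ± 0.20. The 1 higher member was bli-5, which encodes a protease inhibitor of the Kunitz type, with 7.21, 6.93 and 6.84 log2 on the high arrays against low pairs of 5.29 and 5.81, 6.19 and 5.18, and 5.74 and 5.94 and a difference of 1.30 ± 0.23.

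The working description of the split as animals past the moult against animals in it was set against 10 moulting markers. Of these, 6 were called lower on the high arrays, namely mlt-11, nas-37, noah-1, noah-2, fbn-1 and nhr-23. The other 4 were not. mlt-9, at -0.70 log2, was lower on all 3 high arrays than on all 6 low ones but short of 2-fold, whereas mlt-8 at -0.07, mlt-10 at 0.27 and nas-36 at -0.06 had classes that overlapped. mlt-8 stood between 10.2 and 10.9 log2 on all 9 arrays. Since the markers split and no label gives a moult, the classes are named by col-19 only.

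Heterochronic genes, which set the order of larval stages, had 0 of 13 members called in either direction. Beside shares of 1.06% higher and 2.31% lower among all genes, a list of this length need hold no called member. The median was -0.35 log2 (-0.20 without n4357 n4358 replicate 3). The zinc finger gene blmp-1 differed by -0.95 ± 0.24, lin-29 by -0.90 ± 0.12, the steroid receptor gene daf-12 by -0.70 ± 0.11 and the zinc finger gene hbl-1 by -0.66 ± 0.18 (-0.41 without n4357 n4358 replicate 3). For lin-29, whose protein switches on col-19, the high arrays read 7.04, 6.68 and 6.87 log2 against low pairs of 7.79 and 7.66, 7.82 and 7.94, and 7.50 and 7.83, so its level was lower on all 3 high arrays than on all 6 low ones, by less than 2-fold.

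Among secreted hedgehog-related proteins, a family that is expanded in nematodes and expressed largely in epidermis, 6 of 54 were called higher and 6 lower. These were 11.1% each way, beside 1.06% and 2.31% of all genes, and the median was 0.17 log2 (0.11 without n4357 n4358 replicate 3). The warthog gene wrt-10 measured 7.43, 7.83 and 8.17 log2 on the high arrays against low pairs of 10.57 and 10.30, 10.13 and 10.67, and 10.93 and 10.62, a difference of -2.73 ± 0.15. The ground-like gene grl-16 measured 10.92, 10.90 and 10.78 against low pairs of 8.03 and 8.84, 9.18 and 7.99, and 7.91 and 8.13, a difference of 2.52 ± 0.27. Neither gene's classes overlapped. The groundhog genes grd-10 and grd-14 stood on opposite sides, at -2.55 ± 0.28 and 2.40 ± 0.26. Of 27 patched-related transmembrane proteins 1 was higher (3.7%), ptr-16 at 1.07. Lower were 3 (11.1%), ptr-10 at -2.002, ptr-8 at -1.57 and ptr-4 at -1.33 log2.

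Astacin metalloproteases were called 2 higher and 2 lower among 33, 6.06% each way beside 1.06% and 2.31% of all genes. These were nas-7 at 2.02 and nas-27 at 1.41 against nas-4 at -1.63 and nas-37 above. Transthyretin-related proteins, a secreted family, had 0 higher and 7 lower of 40 (17.5%, beside 2.31% of all genes). ttr-8 led them with 4.83, 4.72 and 4.54 log2 on the high arrays against low pairs of 7.54 and 7.0, 7.0 and 7.69, and 8.10 and 8.11, a difference of -2.87 ± 0.24, and ttr-26, ttr-27 and ttr-29 followed at -2.40, -1.68 and -1.14. Epidermal antimicrobial peptides had 0 higher and 6 lower of 30 (20%, beside 2.31% of all genes). Shared probe sets read 19 of the 30, nlp-27 and nlp-29 included, so these are not independent readings. The median of this list was 0.061 log2 over the blocked differences but -0.001, -0.32 and -0.20 inside the genotypes. fipr-2 differed by -2.92 ± 0.27, nlp-27 by -1.56 ± 0.27, nlp-29 by -1.37 ± 0.28 and the caenacin gene cnc-8 by -1.32 ± 0.19. Of the cytoskeletal and attachment genes of the epidermis, 1 of 9 was higher (11.1%, beside 1.06% of all genes), mup-4, and 0 were lower.

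Most genes called lower belonged to none of the lists: 73 of the 395 lower genes and 96 of the 182 higher genes, which include col-19 as a member of no list, belonged to any of the 51 lists. Of the 12 largest negative differences, F23H12.5 was first, with 5.69, 4.54 and 4.53 log2 on the high arrays against low pairs of 7.91 and 8.04, 7.86 and 7.69, and 8.33 and 8.21, a difference of -3.09 ± 0.23. C15F1.2 stood at -3.08 ± 0.38. atf-8, which encodes a bZIP transcription factor, read 4.24, 4.27 and 4.30 against low pairs of 7.59 and 7.07, 7.09 and 7.27, and 7.53 and 7.36, a difference of -3.05 ± 0.13, or 8.29-fold. Its 3 high arrays lay close together, far below the lowest low array. dpy-6, a mucin-like gene needed for normal body shape, differed by -2.98 ± 0.30, and bus-1, in which mutation alters the animal's surface, by -2.94 ± 0.27. pugs-2 and the lectin gene clec-180 stood at -2.89 and -2.75 log2.

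The major sperm proteins and the yolk proteins had median differences above 0 in all 3 genotypes, but their arrays did not divide as the cuticle genes did. All 23 major sperm proteins, the motor proteins of nematode sperm, were called higher, beside 1.06% of all genes, with a median difference of 1.43 log2. All 23 were read by shared probe sets, so they are not 23 independent readings. msp-31 measured 10.63, 10.01 and 9.29 log2 on the high arrays against low pairs of 9.79 and 9.28, 9.46 and 5.65, and 7.91 and 7.47. The classes overlapped, because wild-type replicate 1 and n4357 n4358 replicate 1 lay above the high array of n4503 nDf57, and n4357 n4358 replicate 2 lay far below the rest. The difference was 1.72 ± 0.71 and dropped to 1.13 without n4357 n4358 replicate 2. msp-78 differed by 1.65 ± 0.63, with the same overlap. In whole animals fewer cells of a type and less RNA per cell cannot be told apart. The small sperm-specific proteins had 0 of 8 called, beside 1.06% of all genes higher and 2.31% lower, with a median of 0.58 log2. Of 46 other spermatogenesis genes 3 were called higher (6.52%, beside 1.06% of all genes). These were nspd-1 at 1.26, nspd-2 at 1.23 and nspd-4 at 1.19 (0.76 without n4357 n4358 replicate 2 and 0.74 without its replicate 3). All 3 were read by shared probe sets and had classes that overlapped, so they are not 3 independent readings. The sperm genes spe-9 and fer-1 differed by 0.54 and 0.25.

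Yolk proteins were measured by 5 genes, of which 3 were called higher (60%, beside 1.06% of all genes) and 0 lower. vit-4 measured 7.87, 5.61 and 6.06 log2 on the high arrays against low pairs of 4.90 and 7.05, 4.29 and 5.01, and 4.53 and 4.48, a difference of 1.47 ± 0.43. vit-5 read 7.21, 4.92 and 5.69 against low pairs of 4.34 and 6.91, 4.16 and 4.64, and 4.17 and 4.13, a difference of 1.22 ± 0.50. In both genes wild-type replicate 3, a low array, lay above the high arrays of the 2 mutant genotypes, so the classes overlapped. vit-6 differed by 1.37 ± 0.33. vit-2, at 0.86 ± 0.19, was not called, and it did not exceed 3.8 log2 on any array. The probe sets of vit-4, vit-5 and vit-6 are shared. Among oocyte and eggshell genes 1 of 29 was called higher (3.45%, beside 1.06% of all genes), the eggshell gene perm-2. It read 6.19, 6.28 and 6.82 log2 on the high arrays against low pairs of 5.19 and 5.34, 5.88 and 5.22, and 4.97 and 4.78, a difference of 1.2 ± 0.23. perm-4 differed by 0.65, and the yolk receptor gene rme-2 by 0.35.

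**Figure D2:**
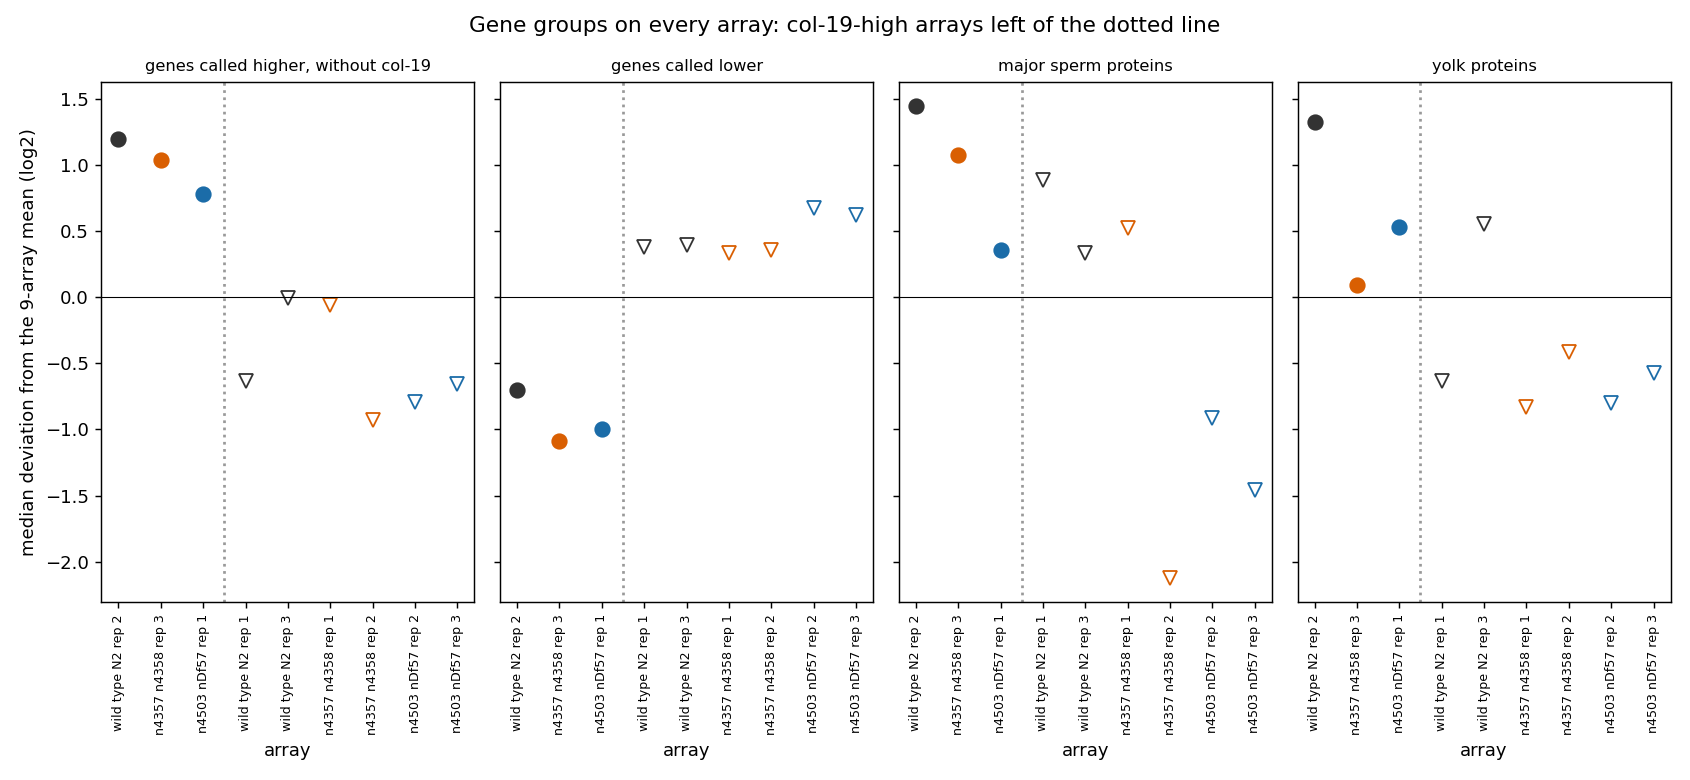
Median deviation of 4 gene groups from the 9-array mean (log2) on each array, the 3 col-19-high arrays as filled circles left of the dotted line and the 6 col-19-low arrays as open triangles. The called genes divide at the line by choice, whereas the major sperm proteins and yolk proteins overlap across it.

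Of 22 zygotic embryo genes and 11 male-specific genes 0 were called in either direction, beside 1.06% of all genes called higher and 2.31% called lower, shares at which a list of this length need hold no called member. Of the embryo genes 18 had positive differences, as had 9815 of all 17118 genes, and the median was 0.14 log2. Higher on all high arrays by less than 2-fold were 3, beside 8.84% of all genes at any size. The embryo markers end-1 and end-3 ranged from 5.42 to 6.20 and from 4.21 to 5.07 log2 over the 9 arrays, and pes-10 from 2.66 to 3.04. The male markers cwp-1 and pkd-2 lay between 2.95 and 3.67 log2, and lov-1 between 4.17 and 5.23. Intestine markers had 0 of 19 called and a median of -0.12 log2. Histones, at 0 of 26, and meiotic chromosome genes, at 0 of 30 with a median of -0.22 (-0.033 without n4357 n4358 replicate 3), held no called member either.

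Genes of DNA replication and cell division were called 3 lower (8.82%, beside 2.31% of all genes) and 0 higher of 34. Their differences were negative in 29, with a median of -0.34 log2 (-0.20 without n4357 n4358 replicate 3). knl-1, a kinetochore gene, measured 6.07, 5.15 and 5.56 log2 on the high arrays against low pairs of 7.24 and 6.73, 6.82 and 6.78, and 6.83 and 6.90, a difference of -1.29 ± 0.15. mcm-5 and mcm-6, subunits of the replicative helicase, differed by -1.09 ± 0.18 and -1.26 ± 0.25. For mcm-6 the value was -0.83 without n4357 n4358 replicate 3, which read 4.94 log2 where the other 8 arrays stood between 6.03 and 7.33.

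Of 37 muscle genes 5 were called lower (13.5%, beside 2.31% of all genes) and 0 higher. With no regard to size, 9 were lower on all high arrays than on all low ones, beside 8.96% of all genes. The median was -0.052 log2 over the list, 26 members of which were read by shared probe sets, and -0.575 with shared probe sets left out. ttn-1, which encodes a titin-like giant muscle protein, measured 3.64, 3.92 and 3.33 log2 on the high arrays against low pairs of 5.62 and 5.73, 5.85 and 5.69, and 5.41 and 5.84, a difference of -2.06 ± 0.13. unc-22, which encodes twitchin, read 5.29, 5.01 and 5.05 against low pairs of 7.21 and 6.63, 7.14 and 6.64, and 6.93 and 8.01, a difference of -1.98 ± 0.27. Both were separated on all 9 arrays. The troponin I gene tni-4 differed by -1.61 ± 0.24 and the myosin heavy chain gene unc-54 by -1.23 ± 0.19. Among the other muscle markers myo-3 differed by -0.57, unc-15 by -0.32 and the pharyngeal myosin myo-2 by 0.06. Neuron genes had 0 of 36 called, beside 1.06% of all genes higher and 2.31% lower, and a median of -0.087. Neuropeptide-like genes had 5 of 58 called lower (8.62%), 3 of which are the antimicrobial peptides nlp-27, nlp-29 and nlp-31.

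Among housekeeping lists, cytosolic ribosomal proteins had a median of -0.022 log2 with 0 of 74 called, proteasome subunits -0.024 with 0 of 33, and genes of the mitochondrial respiratory chain -0.024 with 0 of 41. Mitochondrial ribosomal proteins had 44 of 56 negative differences, beside 7303 of all 17118 genes. Their median was -0.19, and 1 member was called lower (1.79%). Heat shock proteins and chaperones had 41 of 51 negative differences and a median of -0.27, with 2 called lower (3.92%). In this list 14 were lower on all high arrays than on all low ones, beside 8.96% of all genes. UDP-glucuronosyltransferases had 4 of 64 lower (6.25%) and nuclear hormone receptors 1 of 254 (0.394%), beside 2.31% of all genes. C-type lectins had 2 higher and 1 lower of 220 (0.909% and 0.455%). Cytochromes P450 had 1 higher and 2 lower of 73 (1.37% and 2.74%), near the shares of all genes, 1.06% and 2.31%. Of 1276 chemoreceptor genes 1 was called higher, 0.0784% beside 1.06% of all genes. Their median level lay between 3.36 and 3.55 log2 on the 9 arrays, beside 4.82 to 4.90 for all genes. The part of these low levels in the count was not tested. With no regard to size, 133 were higher on all high arrays and 3 lower, beside 8.84% and 8.96% of all genes.

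Among genes linked to the Piwi pathway, bath-45 read 4.38, 4.5 and 4.62 log2 in N2, 6.04, 5.77 and 5.43 in MT14769 and 6.10, 6.39 and 6.25 in SX9, replicates 1 to 3, and its difference between col-19 classes was -0.24 ± 0.12 (-0.11 without n4357 n4358 replicate 3). xol-1, a sex-determination gene, differed by -0.01 ± 0.09. Its shared probe set read only 2.80 to 3.09 log2 over the 9 arrays, below the array medians, and RMA compresses low levels. Of 15 piRNA pathway factors, 20 Argonautes and 20 P granule proteins, 0 were called in either direction. Beside 1.06% of all genes higher and 2.31% lower, these counts of 0 are near the background. With no regard to size, 4 of the 15 piRNA pathway factors were lower on all high arrays than on all low ones, beside 8.96% of all genes. Their differences were negative in 11, with a median of -0.28 log2 (-0.09 without n4357 n4358 replicate 3).

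The division was then read inside each genotype by itself, as the high array minus the mean of its 2 low arrays, in pairs of genotypes that share no array. Over 22548 probe sets these differences had a Pearson correlation of 0.424 between wild type and n4357 n4358, 0.576 between wild type and n4503 nDf57, and 0.647 between the mutants. These are descriptions over probe sets, which are not independent, on arrays all chosen by 1 transcript. The standard deviation of the differences was 0.391 log2 for wild type, 0.591 for n4357 n4358 and 0.524 for n4503 nDf57, and 680, 1951 and 1437 probe sets reached 2-fold. Wild type thus had the narrowest spread.

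Genes picked in 1 genotype were then read in another. Of 253 genes that were at least 2-fold higher and beyond both low arrays in wild type, 45.5% were 2-fold higher in n4357 n4358, where 2.8% of all genes were, and 51.4% in n4503 nDf57, where 1.55% were. Of 285 genes picked as lower in wild type, 171 were 2-fold lower in n4357 n4358, where 5.67% of all genes were, and 216, or 75.8%, in n4503 nDf57, where 5.31% were. The same overlaps as shares of the lists picked in the mutants follow the lengths of those lists. The 171 shared lower genes were 17.6% of 971 picked in n4357 n4358 and the 216 were 23.8% of 909 picked in n4503 nDf57, while the 115 shared higher genes were 24% of 479 and the 130 were 49.2% of 264.

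**Figure D3:**
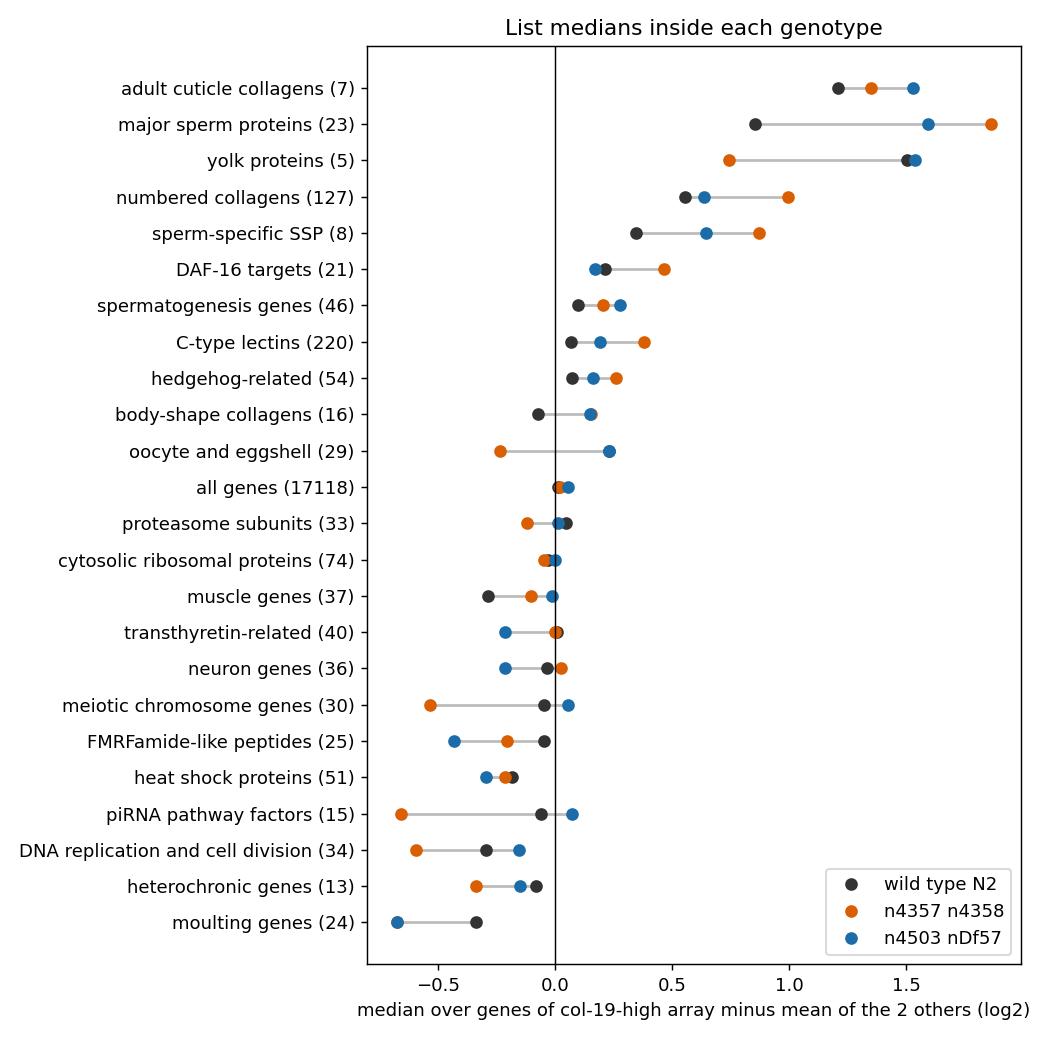
Median over the genes of each list (number of genes in brackets) of the high array minus the mean of the 2 low arrays (log2), with 1 point per genotype. The adult cuticle collagens, major sperm proteins, yolk proteins and numbered collagens lie above 0 in all 3 genotypes, and the moulting genes lie below 0 in all 3.

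Adult cuticle collagens stood at medians of 1.21, 1.35 and 1.53 log2 in the 3 genotypes, in the same order, and numbered collagens at 0.56, 0.99 and 0.64. Moulting genes stood at -0.34, -0.67 and -0.68. Major sperm proteins ranged from 0.85 in wild type to 1.86 in n4357 n4358. piRNA pathway factors stood at -0.06, -0.66 and 0.07, and meiotic chromosome genes at -0.05, -0.54 and 0.06. Whether these medians differ between genotypes was not tested.

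The low arrays were not alike among themselves for the genes called higher. Over these genes without col-19, the median difference from the mean of the high arrays was -1.004 log2 on replicate 3 of wild type and on replicate 1 of n4357 n4358, and -1.504 on replicate 1 of wild type. The other 3 low arrays stood at -1.99, -1.71 and -1.75. Over the 395 genes called lower the low arrays lay closer together, at 1.24 to 1.60 log2 above the mean of the high arrays. Among the high arrays wild-type replicate 2 was the one with the highest median in both sets, at 0.18 and 0.20.

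The high minus low difference, with its sign, was tested between genotypes with limma, in a fit with a mean for each genotype and class. The lone high array of each genotype was assumed to vary like the pairs of low arrays. Each contrast thus sets single high arrays against each other, and a deviation of such an array cannot be told apart from its genotype. Larger and smaller are meant with the sign here and below: a smaller difference is a more negative one and need not be a weaker one. In n4357 n4358 against wild type 722 probe sets passed an adjusted p of 0.05 over 22548 (Benjamini-Hochberg), with the difference larger in 340 (1.51%) and smaller in 382 (1.69%). For both mutants together against wild type 60 passed, 4 larger (0.0177%) and 56 smaller (0.248%), or 2 genes (0.0117%) and 49 genes (0.286%). In n4503 nDf57 against wild type 0 passed in limma, although 2476 had an unadjusted p under 0.05 and the smallest adjusted p was 0.0659. The counts rest on few arrays: 722 became 0 or 1 without any single low array, and 60 became 0.

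Of the 722, 50 (6.93%) were also called higher or lower between the col-19 classes, as were 12 of the 60 (20%), beside 3.26% of all probe sets, and both readings use the same arrays. For the 722 the median difference in size between classes was 0.13 log2 for wild type, 1.21 for n4357 n4358 and 0.28 for n4503 nDf57. Numbered collagens had 5 of 127 larger in n4357 n4358 beside 1.32% of all genes. C-type lectins had 13 of 220 larger, and UDP-glucuronosyltransferases had 8 of 64 and nuclear hormone receptors 8 of 254 smaller beside 1.65% of all genes.

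The genes with the largest contrasts are described by their arrays, since the high class of each genotype is 1 array. golg-5, which encodes a golgin of the Golgi apparatus, measured 7.77, 4.85 and 5.62 log2 on the high arrays against low pairs of 7.66 and 7.80, 7.69 and 7.55, and 7.86 and 7.77. The high arrays of both mutants were low and all 7 others lay close together, and the difference of differences was -2.52 ± 0.16 log2 for both mutants against wild type (limma adjusted p = 0.038). F01D4.5 behaved alike, with 6.65, 4.54 and 4.79 log2 on the high arrays against low pairs of 6.81 and 6.89, 6.45 and 6.48, and 6.57 and 6.63, at -1.66 ± 0.13 (limma adjusted p = 0.038). In acs-1, an acyl-CoA synthetase gene, the wild-type high array was the one that stood low, with 6.55, 8.37 and 8.39 against low pairs of 7.87 and 7.87, 8.07 and 8.14, and 8.37 and 8.25, and the contrast was 1.49 ± 0.14 (limma adjusted p = 0.038). T02C1.1 and E03H4.4 were read high on wild-type replicate 2 alone, at 5.89 and 4.96 log2, and did not exceed 3.74 and 3.10 elsewhere.

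cpt-5, named for carnitine palmitoyltransferase, measured 8.75, 5.81 and 6.25 log2 on the high arrays against low pairs of 7.40 and 7.35, 7.77 and 7.92, and 6.62 and 6.70, so that it was higher on the high array of wild type and lower on those of both mutants. The contrast was -2.59 ± 0.15 for both mutants and -3.41 ± 0.17 for n4357 n4358 alone (limma adjusted p = 0.0235 for the latter). T05E12.6 ran the other way, with 6.69, 9.22 and 9.94 against low pairs of 8.10 and 8.28, 7.21 and 6.89, and 9.18 and 9.51 and a contrast of 2.88 ± 0.25 (limma adjusted p = 0.038). In n4357 n4358 alone, idpa-2, F02H6.1, K01A6.4 and Y46H3C.5 were larger, and replicate 3 was the array that stood apart, on which idpa-2 read 5.74 log2 where the other 8 arrays read 3.13 to 3.49. rig-4, T16G1.7 and F42A10.7 were smaller, by -2.25, -5.15 and -6.75 log2 with limma adjusted p = 0.0235 for each. F42A10.7 measured 11.26, 7.18 and 8.25 log2 on the high arrays against low pairs of 8.36 and 8.25, 11.47 and 10.46, and 7.01 and 7.01, and its levels did not follow col-19 in any common direction. The smallest p in n4503 nDf57 belonged to cyp-25A1, a cytochrome P450 gene, at -2.37 ± 0.17 (limma adjusted p = 0.0659), which did not pass.

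**Figure D4:**
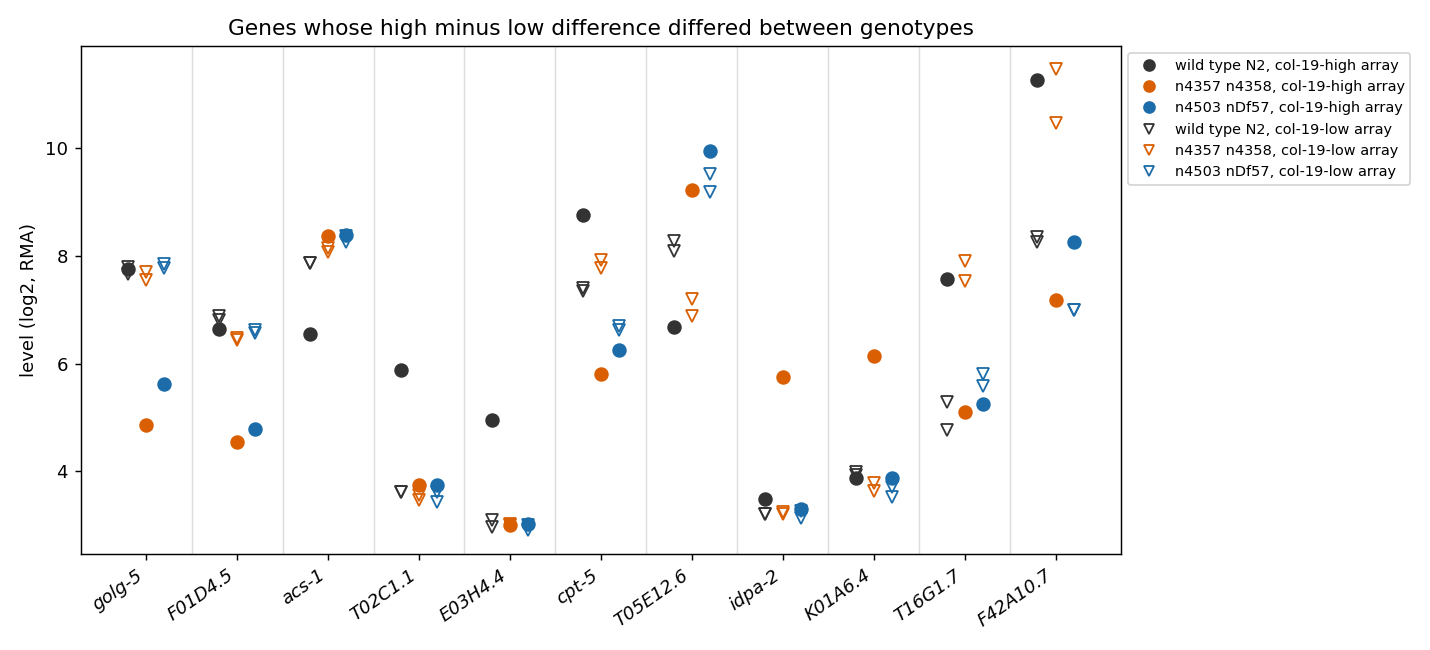
Level (log2, RMA) on each array of 11 genes named in the test of the high minus low difference between genotypes, with filled circles for the col-19-high array and open triangles for the 2 col-19-low arrays of each genotype. In idpa-2 and K01A6.4 the n4357 n4358 high array stands alone, in T02C1.1 and E03H4.4 the wild-type one, and in golg-5 and F01D4.5 the high arrays of both mutants lie below all other arrays.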

How the data were processed

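Total RNA of whole animals was labelled with biotin and hybridised to 9 Affymetrix arrays, 1 sample each, per the labels. Deposited values are log2 levels, 1 per probe set, which the authors computed with RMA, per the submitters' processing notes. Those notes name limma too, and no version of either is given. RMA equalises the arrays' distributions, which removes any shift common to most genes, and compresses low levels. Of 22625 probe sets 77 are controls, leaving 22548. By the probe annotation 20766 of these name 1 gene, 887 several and 895 none, and the first kind covers 17118 genes. In the reference gene table (assembly WBcel235, used only for names, chromosomes and gene order) 20701 of the single-gene probe sets matched and 65 did not. Shared probe sets, 6711 by their names, were kept.

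Arrays were split at a col-19 level of 5.5 log2. Differences between high and low arrays, with genotype as a block, and their standard errors came from limma 3.58.1 in R 4.3.3. They were called at 2-fold with separation inside every genotype, without a test. Each gene took the probe set with the highest mean. Differences of differences were tested in limma over 6 cell means with 3 residual degrees of freedom and 2.86 prior ones, Benjamini-Hochberg adjusted over 22548 probe sets, and the fit was tested on simulated data for both mutants against wild type, on 22548 probe sets. There it recovered 0% of changes of 1 log2, 75.3% of 2 log2 and 94.8% of 4 log2, with 0 to 7.33 false calls per run of 200 changed probe sets. The simulated noise of every array, the lone high ones included, had the spread found inside the low pairs. A deviation of a lone high array was thus not simulated, and these rates do not speak of it. Array weights used statmod 1.5.0. Tables and figures used Python 3.11.15, numpy 2.4.6, pandas 2.3.3 and matplotlib 3.10.9. The number of arrays limits the precision.

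Members, gene lists and tests were chosen with earlier results of these data known. Named genes were prg-1 and prg-2, bath-45, xol-1 and col-19, the 12 largest called differences each way, up to 4 members per list described, and up to 5 genes per direction and contrast of the test, or the 1 with the smallest p. Genes outside this rule are said to be so or stand as fixed stage and tissue markers or as a small count. Alternatives covered the block, the normalization, low levels, shared probe sets, a mean over a gene's probe sets, the size limit, the separation, the choice of arrays by the first principal component, the variance model, array weights, the adjusted p threshold, the replicate number and each array left out in turn.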

Additional observations from a re-analysis of the deposited data

Results flagged for a closer look

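In 6 of 51 gene lists 1 of the 6 col-19-low arrays stood far from the other 5 in the list's median deviation from the 9-array mean. Chance alone places about 1 group in 20 so far out. Body-shape collagens were highest on n4357 n4358 replicate 1, at 0.448 log2 where the next array read 0.004. Yolk proteins were highest on wild-type replicate 3, at 0.554 with the next array at -0.418. The other 4 stood apart by less: astacin proteases on n4357 n4358 replicate 2 at 0.047 (next -0.028), male-specific genes on the same array at 0.024 (next -0.042), the mitochondrial respiratory chain on n4503 nDf57 replicate 2 at 0.112 (next 0.019) and cytosolic ribosomal proteins on wild-type replicate 1 at 0.051 (next 0.008).

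The high minus low difference, which rests on 1 high array per genotype, passed limma's test of the difference in 722 probe sets for n4357 n4358 against wild type and in 60 for both mutants against wild type. In 426 of the 722 the difference had opposite signs in wild type and n4357 n4358.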

How the results depend on the processing

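The counts of 231 probe sets higher and 505 lower became 101 and 326 without shared probe sets, 516 and 1304 at a 1.5-fold limit and 40 and 62 at a 4-fold limit. Leaving out 1 array gave 193 to 274 higher and 473 to 995 lower. The last was without wild-type replicate 2, where separation was asked of the mutant genotypes only. The other alternatives for these counts stayed within 1.5 times. For n4357 n4358 against wild type the 722 probe sets became 0 at an adjusted p of 0.01, 233 with the filter on low levels, 1563 with a variance trend and robust estimation, 405 after cyclic loess, and 0 to 722 when 1 array was left out. For n4503 nDf57 the count of 0 became 54 with the variance trend and 20 without shared probe sets. For both mutants 60 became 0 at an adjusted p of 0.01, 421 with the variance trend, 103 without shared probe sets and 0 to 0 when 1 array was left out. Same-numbered arrays of different genotypes had residuals correlating from -0.322 to 0.535, and not every pair was above 0.1, so the numbers were not taken as pairs. With a replicate block the counts of 231 and 505 stayed as they were, and 722 and 60 both became 0, with 1 residual degree of freedom left. The counts of 231 and 505 could not move with that block, since each genotype and each replicate number holds 1 high array. For the same reason they could not move when the genotype block was dropped. Wherever a count moved, the cause was not tested.

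Among 32 lists whose median had 1 sign in all 3 genotypes, 12 of 478 alternative medians changed sign, all in lists with a median within 0.1 log2 of 0. Centring on ribosomal and proteasome genes gave 0.007 for precuticle genes and 0.020 for cytosolic ribosomal proteins. Cyclic loess gave -0.035 for astacin proteases, -0.005 for nuclear hormone receptors, -0.039 for epidermal antimicrobial peptides and -0.005 for chemoreceptors. With 1 array left out, precuticle genes ran from -0.068 to 0.004, muscle genes from -0.17 to 0.010, glutathione transferases from -0.008 to 0.139 and epidermal antimicrobial peptides from -0.084 to 0.060. Over all 51 lists 140 of 763 alternative medians moved by more than the spread between low arrays, and 35 changed sign. The 101 named genes called higher or lower kept their sign in all 1313 alternatives run for them. Of these values 102 moved by more than that spread. For most of these alternatives the sign was fixed in advance. A call asks for separation inside every genotype, so leaving out 1 array cannot turn its sign. Neither dropping the genotype block nor adding a replicate block can change these differences. Cyclic loess moved the median of all differences by -0.052 log2 and centring moved it by 0.042.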
